A study of Mus musculus with 4 samples.

Results

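The genes described here encode subunits of high-voltage-activated calcium channels, measured in mouse embryo tracheas of embryonic day 16. They were chosen by name, as 4 pore genes (Cacna1a, Cacna1c, Cacna1d and Cacna1s), 4 beta subunit genes (Cacnb1 to Cacnb4) and the alpha2delta genes Cacna2d1 and Cacna2d2. Of these 10 genes, 9 were paired with a probe set, out of 18193 genes so paired on the array; Cacnb3 had none in the annotation used. The study compared 2 samples of a1H knockout embryos, sought as homozygotes, with 2 of wild-type embryos, all on a C57BL/6 background and with 1 Affymetrix array per sample. The a1H of the labels is taken as the alpha-1H pore of the Cav3.2 channel, encoded by Cacna1h. The sources used here give no allele and do not say whether a sample was 1 embryo or a pool, so p-values here reflect array-to-array spread alone, part of which may be technical.

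High-voltage-activated channels open at strong depolarisation and let calcium into the cell to trigger contraction, secretion or gene expression. The pore subunit carries voltage sensing and ion selectivity. A cytoplasmic beta subunit and an extracellular alpha2delta subunit bring the pore to the membrane and tune its gating. Low-voltage T-type channels, to which Cav3.2 belongs, are known to work as pores without needing these auxiliary subunits. In an airway wall the L-type pore of Cacna1c is known for calcium entry into smooth muscle, whereas the Cacna1s channel is the voltage sensor of skeletal muscle.

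Values are MAS5 signals on a linear scale, scaled per array to a trimmed mean of 1500. Array medians were 426 and 320 in the labelled knockout and 459 and 416 in wild type. Hybridisation control spikes had a geometric mean of 4744 and 4787 on the replicate 1 arrays of knockout and wild type, and of 14007 and 11598 on the replicate 2 arrays. Actin 3' to 5' signal ratios were 1.90 and 1.97 in the labelled knockout and 1.69 and 1.66 in wild type. Cacna1h itself read 981 and 631 on the labelled knockout arrays, against 630 and 538 in wild type, so it was not lower where it is labelled as removed. Whether its probe set lies in the deleted part is not known here, so this does not check the labels, and every direction below rests on them. Cartilage markers such as Col2a1 (at least 14609 on every array) and epithelial markers such as Krt8 (at least 9926) were bright, as were skeletal muscle markers such as Mylpf (at least 26332). Because this is bulk tissue, fewer cells of a type and less RNA per cell cannot be told apart.

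None of the channel subunit genes was called different between the genotypes. Of the 9 measured genes, 7 reached the level filter, a mean signal of about 397 that is the median of all probe sets, and 0 of these 7 had a Benjamini-Hochberg adjusted p under 0.05 in limma. Over all 11694 genes tested the share called was 0.0%. An unadjusted p under 0.05 was reached by 0 of the 7, against 4.58% of all genes. The 7 differences on the log2(signal + 16) scale, labelled knockout minus wild type, ran between -0.43 for Cacna1a and 0.55 for Cacnb1. Their median was 0.15, against 0.039 over all genes tested, with 4 above 0 and 3 below. Groups of arrays did not overlap for 3 of the 7, Cacnb1 higher and Cacna1a and Cacna2d1 lower, against 36.1% of all genes tested. The shares of all genes without overlap were 21.5% higher and 14.6% lower. With 2 arrays a group, an exact permutation test cannot give a two-sided p below 0.333.

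**Figure D1:**
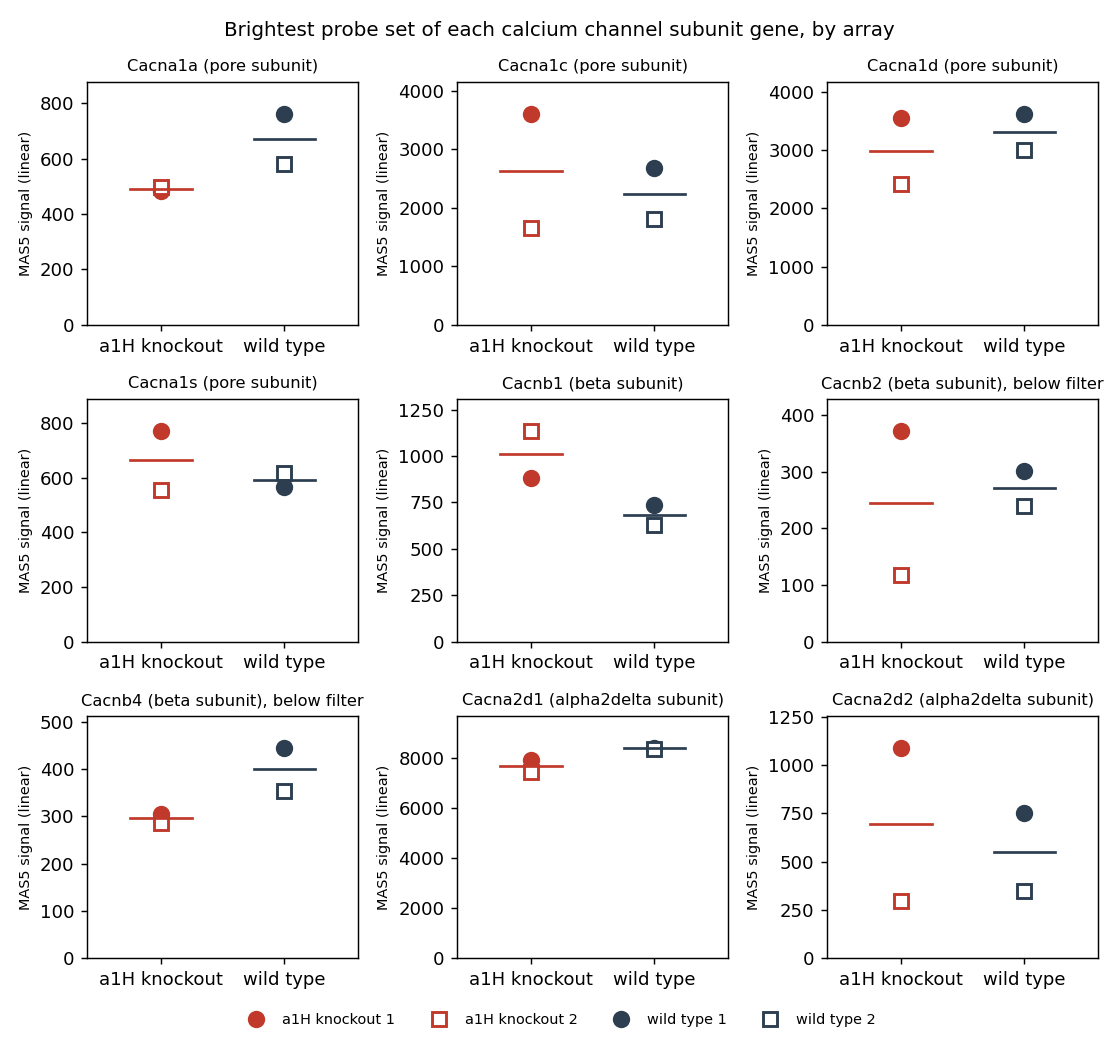
MAS5 signal on a linear axis for the brightest probe set of each of the 9 measured genes, with 1 point per array and a line at the group mean, a1H knockout as labelled on the left and wild type on the right. Cacna1c, Cacna1d, Cacnb2, Cacnb4, Cacna2d1 and Cacna2d2 have the filled replicate 1 point above the open replicate 2 point in both genotypes. Cacnb1 has both labelled knockout points above both wild-type points.

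Among the pore genes, Cacna1c encodes Cav1.2, the L-type channel of heart and smooth muscle. Its brightest probe set, 1421297_a_at, read 3606 and 1665 in the labelled knockout and 2682 and 1804 in wild type, or 2636 ± 1372 and 2243 ± 621 (SD, n = 2 each). The knockout pair spanned the wild-type pair, with the first knockout array highest and the second lowest. The log2 difference was 0.16 (limma, SE 0.38, adjusted p = 0.957), and its 95% interval ran from 0.60-fold to 2.07-fold. A second Cacna1c probe set, 1435730_at, read 2828 and 1008 in the labelled knockout and 2259 and 1270 in wild type. Both probe sets thus placed the 4 arrays in the same order, and the log2 difference of the second was -0.0035. Within replicate number 1 the Cacna1c difference was 0.43, but within number 2 it was -0.11.

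Cacna1d encodes Cav1.3, an L-type channel that opens at more negative voltages and serves pacemaking in the sinoatrial node and in secretory cells. It read 3541 and 2418 in the labelled knockout and 3618 and 3008 in wild type on 1427974_s_at, a type of probe set that can bind more than 1 transcript. Genotypes overlapped, and in both of them the replicate 1 array was the brighter. The log2 difference of Cacna1d was -0.17 (limma, SE 0.24, adjusted p = 0.924), and it turned to 0.060 when arrays were centred on their medians and to 0.018 as a mean over both its probe sets. Its other probe set, 1428051_a_at, was dim at 37.0 and 79.0 in the labelled knockout and 55.0 and 37.2 in wild type. These dim values overlapped between genotypes too.

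Cacna1s, the pore and voltage sensor of skeletal muscle, read 772 and 556 in the labelled knockout and 565 and 617 in wild type. The wild-type arrays lay close together, and the knockout arrays lay on either side of them; after quantile normalisation or centring both knockout arrays were higher. Its log2 difference was 0.15 (limma, SE 0.30, adjusted p = 0.951), made up of 0.44 within number 1 and -0.14 within number 2. Cacna1a encodes Cav2.1, the P/Q-type channel of nerve terminals, and its brightest probe set, 1459996_at, read 483 and 499 in the labelled knockout against 761 and 582 in wild type. Both knockout arrays were below both wild-type arrays, though the groups overlapped after quantile normalisation and after centring. The log2 difference of Cacna1a was -0.43 (limma, SE 0.29, adjusted p = 0.875), with a 95% interval of 0.46-fold to 1.20-fold. Of its 3 dimmer probe sets, 1444455_at had a log2 difference of -0.49, 1450510_a_at had 0.076 and 1430408_at had 0.59. They therefore did not share 1 direction.

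Of the beta subunits, which bind the cytoplasmic linker after the first repeat of the pore, Cacnb1 is the form of the skeletal muscle channel. Its brightest probe set, 1426108_s_at, is like that of Cacna1d of a type that can bind more than 1 transcript. It read 882 and 1136 in the labelled knockout, against 737 and 627 in wild type, or 1009 ± 179 and 682 ± 77.4 (SD, n = 2 each). Both knockout arrays were above both wild-type arrays, also after quantile normalisation and centring. The log2 difference was 0.55 (limma, SE 0.28, adjusted p = 0.875), and the 95% interval ran from 0.93-fold to 2.31-fold. Number 1 gave 0.26 and number 2 gave 0.84. Of 3 dimmer Cacnb1 probe sets, 1440940_at had a log2 difference of 0.44, whereas 1425777_at and 1451834_at had -0.14 and -0.17, so the gene's probe sets disagreed in sign.

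Cacnb2, the main beta subunit of heart muscle, and Cacnb4, a beta subunit of brain known from the lethargic mouse, did not reach the level filter. Cacnb2 read 372 and 118 in the labelled knockout and 301 and 240 in wild type, with the knockout arrays at both extremes. Its difference was -0.32 (limma without the filter, SE 0.58, adjusted p = 0.947), and its second probe set had -0.30. Cacnb4 read 306 and 286 in the labelled knockout against 445 and 353 in wild type on 1436912_at, without overlap. A second probe set, 1452089_at, read 262 and 285 in the labelled knockout against 317 and 395 in wild type, also without overlap. The third, 1428928_at, read 195 and 95.5 in the labelled knockout and 302 and 183 in wild type, where the groups overlapped. The log2 differences of the 3 Cacnb4 probe sets were -0.40, -0.35 and -0.71, all below 0, and the fit without the filter gave an adjusted p of 0.890 for the brightest. At this level MAS5 signals are noisy, and none of these differences passed.

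The alpha2delta proteins are extracellular, and alpha2delta-1, encoded by Cacna2d1, is also known as the binding site of gabapentin. Cacna2d1 had the narrowest spread of the 9 genes, at 7890 and 7424 in the labelled knockout against 8404 and 8363 in wild type on 1433643_at. Both knockout arrays were lower, at a log2 difference of -0.13 (limma, SE 0.17, adjusted p = 0.920), and after centring of the arrays the value turned to 0.10 and the groups overlapped. The 95% interval ran from 0.69-fold to 1.21-fold. Its 4 other probe sets spread widely, with log2 differences of -0.72 on 1441608_at, -0.39 on 1449999_a_at, -0.36 on 1425861_x_at and 0.20 on 1440397_at. On 1441608_at the signals were 401 and 319 in the labelled knockout against 773 and 463 in wild type, without overlap. On 1440397_at they were 1283 and 1046 in the labelled knockout against 1008 and 999 in wild type, without overlap in the opposite direction.

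Cacna2d2 encodes alpha2delta-2, known from the ducky mouse and its cerebellum. It varied most among the 7 tested subunit genes, at 1090 and 297 in the labelled knockout and 752 and 346 in wild type. The replicate 1 arrays were higher in both genotypes, by a log2 value of 1.82 in the labelled knockout and 1.08 in wild type. The difference between genotypes was 0.16 (limma, SE 0.63, adjusted p = 0.977), and the 95% interval of 0.40-fold to 3.10-fold was the widest of the 7. Its 2 other probe sets were dim, with log2 differences of -0.84 on 1426185_at, which read at most 89.3, and 0.17 on 1451955_a_at.

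**Figure D2:**
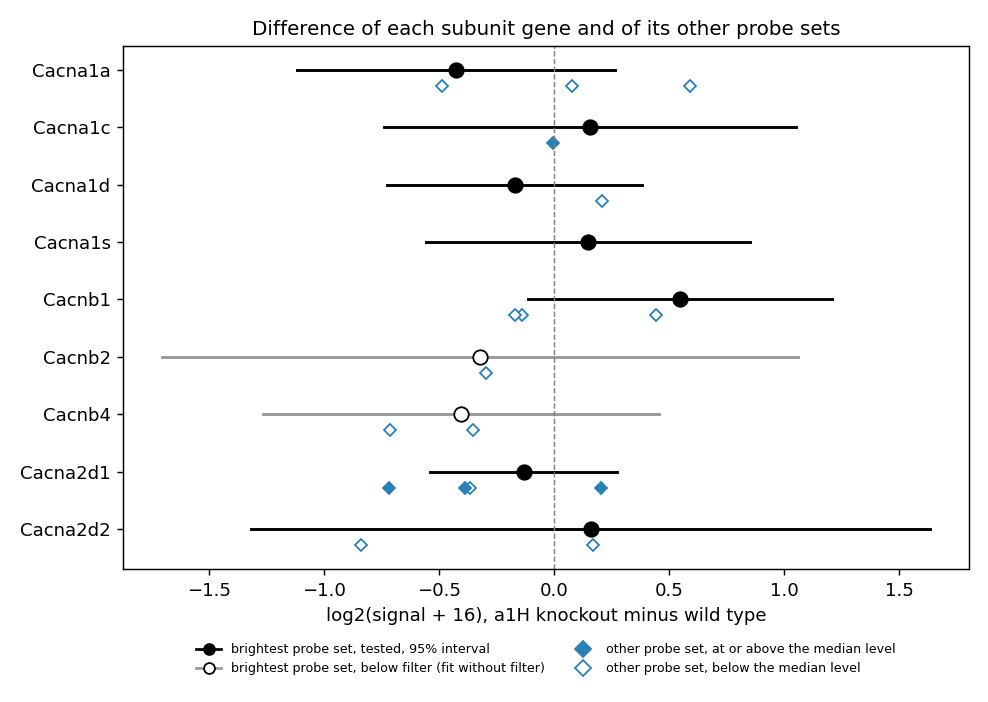
Difference in log2(signal + 16), a1H knockout as labelled minus wild type, for the brightest probe set of each gene (circles, with the 95% interval of the limma fit) and for its other probe sets (diamonds, no interval). Every interval includes 0, and the probe sets of Cacna1a, Cacna1c, Cacna1d, Cacnb1, Cacna2d1 and Cacna2d2 lie on both sides of 0.

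Several channel genes shared an order of the arrays. Both replicate 1 arrays lay above both replicate 2 arrays for 3 of the 7 tested genes, and for Cacnb2 below the filter, against 27.2% of all genes tested; the reverse held for 0 of them, against 18.4%. On their brightest probe sets Cacna1c, Cacnb2 and Cacna2d2, a pore, a beta and an alpha2delta gene, had the same array order. They read highest on labelled knockout replicate 1, then on wild-type replicate 1, then wild-type replicate 2, and lowest on labelled knockout replicate 2. This order was noticed after the values were seen, and 7.76% of all genes tested had it, a share that leaves out dim genes such as Cacnb2. It was found in 4 of the 26 subunit probe sets, including both of Cacna1c. The second Cacnb2 probe set and the other, dim Cacna2d2 probe sets did not have it. Of 8 markers of heart muscle, 5 had the same order, namely Myh6, Nppa, Myl7, Tnni3 and Mybpc3. Myh6, the atrial myosin heavy chain, read 16214 and 294 in the labelled knockout and 9554 and 3202 in wild type. Mybpc3, cardiac myosin-binding protein C, read 9223 and 68.2 in the labelled knockout and 2482 and 244 in wild type. The cardiac list summed to 126946 and 50684 in the labelled knockout and to 76305 and 47237 in wild type, and no marker was at 0. Myl4 and Tnnt2, which embryonic skeletal muscle also expresses, did not follow, nor did Myl2. Tnnt2 was higher in the labelled knockout without overlap, at 22356 and 19280 against 15070 and 13068 in wild type (log2 difference 0.56; limma, adjusted p = 0.875).

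Heart muscle is known to use a channel of Cav1.2 with a beta-2 and an alpha2delta subunit, coupled to the release channel of Ryr2. Ryr2 read 5787 and 342 in the labelled knockout and 2243 and 790 in wild type, in that same array order. Cacna2d1, an alpha2delta gene of higher signal than Cacna2d2, had that order on none of its probe sets. Ryr3, another release channel, read 1981 and 625 in the labelled knockout and 1347 and 748 in wild type, again in that order. That order was found in 3 of 14 genes of the triad and calcium release, namely Ryr2, Ryr3 and Trdn. Akap7, 1 of 13 channel-binding regulators with a probe set, and Pygm, 1 of 12 skeletal muscle markers, had it too. Among 10 markers of smooth muscle, 3 had it, namely Cnn1, Synpo2 and Myocd. Acta2 did not, at 18111 and 20570 in the labelled knockout and 16740 and 25172 in wild type. The part that heart or smooth muscle RNA, or the replicate number, has in the Cacna1c, Cacnb2 and Cacna2d2 values was not tested. Without labelled knockout replicate 1 the Cacna1c difference was -0.40 and that of Cacna2d2 was -0.75, and without labelled knockout replicate 2 they were 0.71 and 1.07, so the sign of each rested on single arrays. Leaving out wild-type replicate 2 turned them as well, to -0.13 and -0.38.

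**Figure D3:**
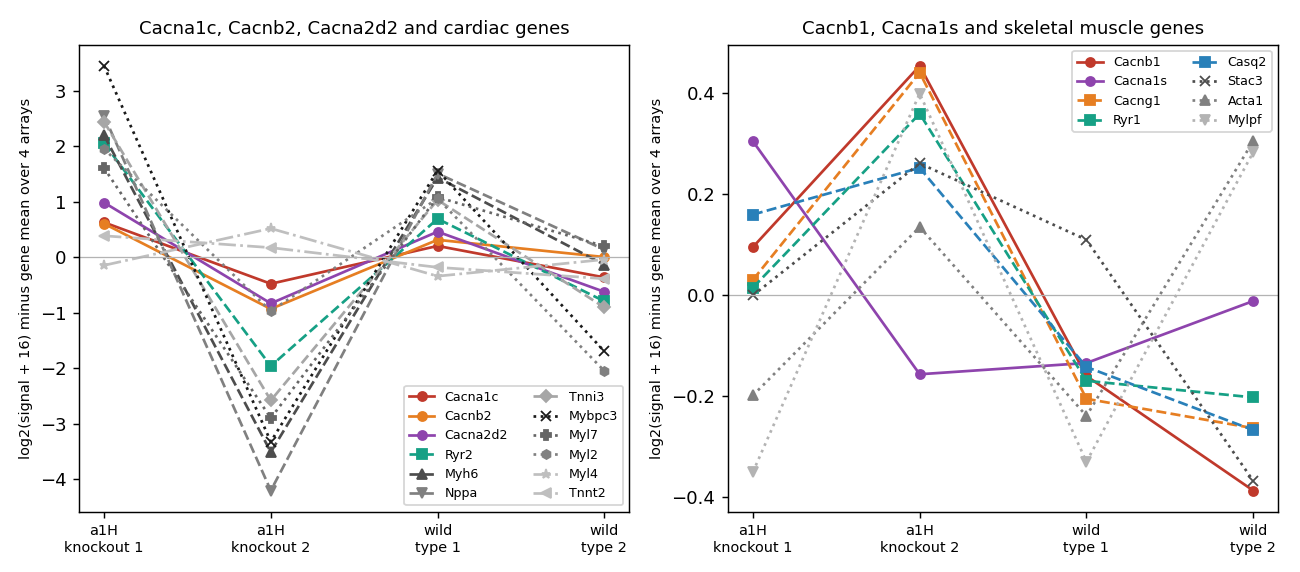
Log2(signal + 16) on each array, centred on the gene's mean over the 4 arrays, with a1H knockout as labelled on the left and wild type on the right of each panel. In the left panel Cacna1c, Cacnb2, Cacna2d2 and Ryr2 follow the same array order as 5 of the 8 cardiac markers, all 8 of which are drawn; in the right panel Cacnb1, Cacng1, Ryr1 and Casq2 share an order that Cacna1s, Stac3 and the skeletal markers Acta1 and Mylpf do not have.

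Promoter windows of Cacna1c, Cacnb2 and Cacna2d2 are shown because the values of their brightest probe sets moved together over the arrays. They come from RefSeq on GRCm38.p6 and run from 250 bases before to 50 bases after an annotated start. There were 17 such windows over 9 of the 10 genes. For each of these 3 genes 1 is printed, the one with a GC box match where several starts are listed. Capitals mark the GC box GGGCGG on either strand, with overlapping matches run together, and all other bases are in lower case.
Cacna1c, GRCm38.p6 chr6:119108446-119108745, minus strand: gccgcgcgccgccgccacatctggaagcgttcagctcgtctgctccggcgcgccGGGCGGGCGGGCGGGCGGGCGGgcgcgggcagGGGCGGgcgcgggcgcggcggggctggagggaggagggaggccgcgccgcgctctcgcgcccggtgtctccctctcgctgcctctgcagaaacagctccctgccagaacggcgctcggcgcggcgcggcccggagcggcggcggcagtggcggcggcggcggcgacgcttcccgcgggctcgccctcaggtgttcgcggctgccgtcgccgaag
Cacnb2, GRCm38.p6 chr2:14604056-14604355, plus strand: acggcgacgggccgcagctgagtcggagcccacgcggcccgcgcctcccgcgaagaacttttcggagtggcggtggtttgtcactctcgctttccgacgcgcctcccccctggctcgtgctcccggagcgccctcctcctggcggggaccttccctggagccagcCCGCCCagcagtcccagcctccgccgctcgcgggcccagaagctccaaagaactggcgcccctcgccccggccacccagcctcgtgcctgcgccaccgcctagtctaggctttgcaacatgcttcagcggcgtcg
Cacna2d2, GRCm38.p6 chr9:107399630-107399929, plus strand: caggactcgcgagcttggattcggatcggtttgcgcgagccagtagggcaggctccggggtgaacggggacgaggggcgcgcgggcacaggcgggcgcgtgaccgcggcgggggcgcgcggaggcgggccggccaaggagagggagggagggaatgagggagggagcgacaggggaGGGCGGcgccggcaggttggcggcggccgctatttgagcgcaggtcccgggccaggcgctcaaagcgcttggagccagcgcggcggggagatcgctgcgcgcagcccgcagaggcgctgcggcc
Since the windows of Cacna1c and Cacnb2 were chosen for a GC box, their content is a description. Their GC content was 81.3% for Cacna1c, 71.7% for Cacnb2 and 75.7% for Cacna2d2, which has a single window. The windows not printed were at 51.3% and 51.3% for Cacna1c and at 44.0% for Cacnb2, each with 0 GC boxes, and the median over all windows was 52.7%. The printed Cacna1c window held 6 GC boxes, most of them in 1 overlapping run, and the other printed windows held 1 each. Over all 32851 windows, chosen for nothing, 35.7% held at least 1. The CArG box and the MEF2 motif, searched on both strands, had 0 matches in the 17 windows, and 1.63% and 3.19% of all windows held them. The arrays do not tell which start was used.

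A rule of likeness over the 4 arrays gave neighbours for the 2 subunit genes of widest range among the subunit genes tested. Likeness was the Euclidean distance between centred log2 profiles. The nearest genes to Cacna2d2 were Fam160b2 at 0.21, Ryr3 at 0.22 and Glrb at 0.25. Those nearest to Cacna1c were Tango2, Mgmt and Trim11, at 0.068, 0.073 and 0.078. With only 4 arrays these distances are a description without a test.

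The skeletal muscle channel is known to hold Cacna1s, Cacnb1, Cacna2d1 and the gamma subunit Cacng1, facing the release channel Ryr1. Cacng1 read 979 and 1307 in the labelled knockout against 830 and 796 in wild type, and Ryr1 read 6896 and 8760 in the labelled knockout against 6066 and 5929 in wild type. Casq2, a calcium buffer of the store, read 13803 and 14717 in the labelled knockout against 11194 and 10264 in wild type. Cacng1, Ryr1, Casq2 and Cacnb1 had 1 array order, highest on labelled knockout replicate 2 and lowest on wild-type replicate 2, and they were picked for it. It was found in 7.69% of all genes tested, in 2 of 14 genes of the triad and calcium release, in 1 of 8 gamma subunits and in 1 of the 26 subunit probe sets. Casq1, the calsequestrin of fast skeletal muscle, did not have it, with a log2 difference of -0.021 and overlapping groups, and Cacna2d1 had lower values in the labelled knockout. Their log2 differences of 0.47 for Cacng1, 0.37 for Ryr1 and 0.41 for Casq2 each had an adjusted p of 0.875 in limma, so none passed. Cacna1s did not share the order, nor did Stac3, an adaptor that Cav1.1 needs in muscle, at 985 and 1184 in the labelled knockout and 1064 and 760 in wild type. Of 12 skeletal muscle markers 0 separated the genotypes, against 36.1% of all genes tested, and 9 read higher on both replicate 2 arrays than on both replicate 1 arrays, against 18.4%. The list summed to 151610 and 232494 in the labelled knockout and to 141069 and 211788 in wild type, with no marker at 0, and its part in the Cacnb1 value was not tested.

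Some channel genes known from neurons had lower means in the labelled knockout and others higher, and none passed the test. Cacna2d2, described above, had a log2 difference of 0.16. Cacng8, a gamma subunit of brain that lay below the filter, read 332 and 489 in the labelled knockout against 220 and 301 in wild type. Other gamma subunits below the filter went the other way or overlapped. Cacng2 read 149 and 41.8 in the labelled knockout against 363 and 231 in wild type. Cacng3 read 6.31 and 4.16 in the labelled knockout against 35.7 and 93.7 in wild type. Cacng5 and Cacng7 overlapped. In limma without the filter Cacng2, Cacng3 and Cacng8 each had an adjusted p of 0.886. Beside Cacna1a and Cacnb4, which were lower, Cacna1e, the R-type pore, read 449 and 249 in the labelled knockout against 451 and 531 in wild type, at a log2 difference of -0.53 (limma, SE 0.37, adjusted p = 0.875). Cacna2d3, another alpha2delta gene, read 455 and 730 in the labelled knockout against 748 and 762 in wild type, a log2 difference of -0.38 (adjusted p = 0.886, limma). Most of the Cacna1e gap lay within number 2, and most of the Cacna2d3 gap within number 1. Cacna1b, another high-voltage pore gene, lay below the filter at a log2 difference of -0.23. Its groups overlapped, at 234 and 254 in the labelled knockout and 253 and 329 in wild type. Neuron markers did not move 1 way: of 6 tested, Snap25 and Elavl4 were lower and Prph higher without overlap, and Tubb3, Stmn2 and Gap43 overlapped. Among all genes tested 36.1% did not overlap, and without the filter 6519 of 18193 genes did not. Below the filter lay Chrna3, a nicotinic receptor subunit, and Th and Dbh, enzymes of catecholamine synthesis. Chrna3 was lower without overlap, at 218 and 226 in the labelled knockout against 254 and 336 in wild type, and Th and Dbh were higher without overlap. Th read 159 and 186 in the labelled knockout against 29.0 and 42.4 in wild type, and Dbh read 327 and 301 in the labelled knockout against 177 and 179 in wild type. That list summed to 6399 and 9784 in the labelled knockout and to 6465 and 7983 in wild type. The neuroendocrine granule genes Scg2 and Scg3 were lower without overlap, with log2 differences of -0.72 and -0.53, while Chga and Chgb overlapped. That list summed to 6723 and 8891 in the labelled knockout and to 7046 and 8862 in wild type, no marker of either list was at 0, and their part in the channel values was not tested.

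**Figure D4:**
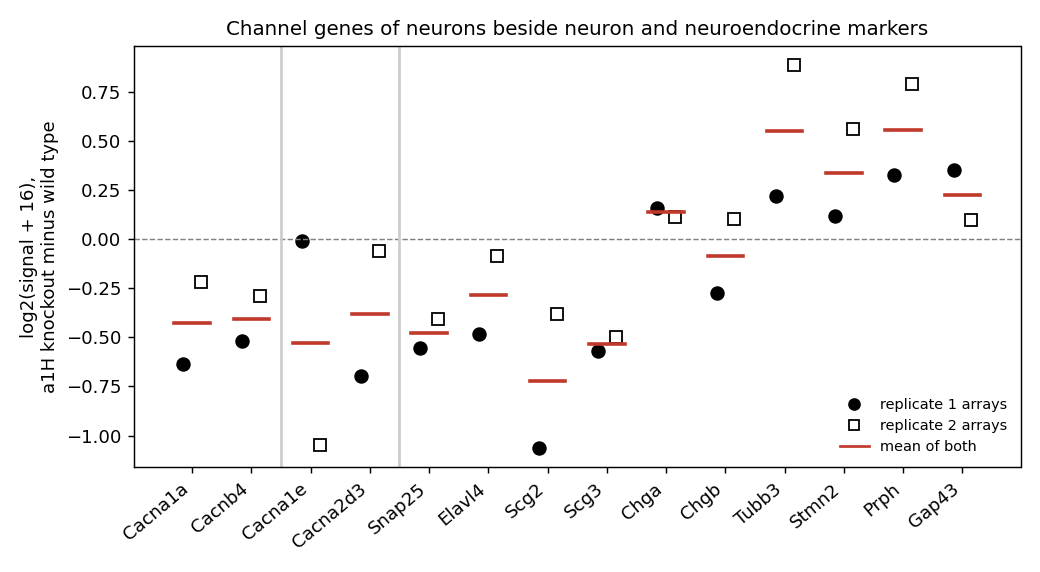
Difference in log2(signal + 16), a1H knockout as labelled minus wild type, within each replicate number (points) and as the mean of both (short lines) for 4 channel genes and for the 6 neuron and 4 neuroendocrine markers tested. Cacna1a, Cacnb4, Cacna1e and Cacna2d3 lie below 0 in both replicate numbers, though Cacna1e is at -0.0068 in number 1. Snap25, Elavl4, Scg2 and Scg3 also lie below 0 in both, while Tubb3, Stmn2, Prph, Gap43 and Chga lie above 0 in both. Chgb lies below 0 in number 1 and above 0 in number 2. The 4 channel genes drawn all have lower means in the labelled knockout. Cacna2d2 and Cacng8, with higher means, and Cacng2, Cacng3 and Cacna1b, with lower means, are not drawn.

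The wider channel family and its regulators were counted as 6 lists of 44 genes, of which 42 had a probe set and 27 were tested. None of the 27 passed in limma, where the share over all genes was 0.0%, with 16 differences above 0, 11 below and a median of 0.048. Both T-type pore genes with a probe set, Cacna1g and Cacna1h, were higher without overlap, as were 21.5% of all genes tested, with log2 differences of 0.47 and 0.43 and adjusted p-values of 0.875 each in limma. For Cacna1h the nearest arrays of the groups differed by little, at 631 in the labelled knockout and 630 in wild type. Among gamma subunits 3 of 8 were tested, with Cacng4 at -0.31 and Cacng6 at 0.042 beside Cacng1. Of 14 channel-binding regulators 8 were tested, 3 above 0 and 5 below. Gem, a small GTPase that inhibits high-voltage channels through the beta subunit, read 1200 and 566 in the labelled knockout and 1615 and 1194 in wild type, and its groups overlapped. Its log2 difference was -0.74 (limma, SE 0.39, adjusted p = 0.875). Stac and Stac3, adaptors of L-type channels, had 0.46 and 0.26, and Akap5, an anchor for kinases at the channel, had -0.29. Of 14 genes of the triad and calcium release 12 were tested, 9 above 0 and 3 below, with Fkbp1b, a ryanodine receptor partner, at 0.34 and Jph1, which ties the membranes together, at -0.30.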

How the data were processed

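Trizol was used for RNA extraction per the labels' protocols; 50 ng was amplified as cDNA by the SPIA method with the Ovation Pico system, and 3.75 µg was labelled with biotin. The deposited intensity values, 1 signal per probe set and array, came from MAS5, as named in the submitters' processing notes, whose version was not stated, and no detection calls were used. Of 45101 probe sets, 64 controls were left out. Exactly 1 gene was listed for 34945 in the platform annotation, several for 932 and none for 9160. Of those with 1 gene, 34741 were matched by gene id to a RefSeq table (GRCm38.p6), whose symbols were then used.

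Each gene kept the probe set of highest mean log2(signal + 16), and genes at or above the median of all probe sets were tested with limma 3.58.1 under R 4.3.3 (lmFit, then eBayes allowing for a trend in intensity), without covariates beside genotype, and Benjamini-Hochberg adjustment over all genes tested at a threshold of 0.05. Intervals are unadjusted. The pseudocount of 16 understates differences of dim genes, and the number of arrays limits the precision. Probe sets of 1 gene share a transcript and are not replicates. Figures used matplotlib 3.10.9 in Python 3.11.15.

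Genes and lists were chosen with earlier results of these data known. Named were the 10 subunit genes, Cacna1h, up to 4 genes with the smallest unadjusted p of each related list, up to 3 of the brightest of each marker list, and the nearest profiles; other markers, Ryr2 and the list members named for their array order or overlap were chosen after their values were seen. Thymocyte markers, listed as well, summed to 26794 and 9865 in the labelled knockout and to 3684 and 12217 in wild type. Alternatives changed the pseudocount (1 and 64), the filter (none, 75th percentile), normalisation, the probe set rule, the trend, array weights, a replicate block, and each array left out in turn.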

Additional observations from a re-analysis of the deposited data

How the results depend on the processing

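No subunit gene passed under 11 other settings or with 1 array left out, with adjusted p-values of at least 0.310. With all arrays kept, 67 of 70 values of the 7 tested genes kept their sign. Centring turned Cacna2d1 to 0.10 and Cacna1d to 0.060, and averaging over probe sets turned Cacna1d to 0.018; centring also moved the median of all genes to 0.27, against 0.039, so differences there read relative to that shift. With 1 array left out, Cacna1d lay between -0.45 and 0.10, Cacna1c between -0.40 and 0.71, Cacna1s between -0.084 and 0.38, and Cacna2d2 between -0.75 and 1.07, while Cacnb1 stayed between 0.37 and 0.73, Cacna1a between -0.62 and -0.24 and Cacna2d1 between -0.18 and -0.087. Over all genes, the count past the threshold was 0 in the main fit and lay between 0 and 492 with 1 array left out, reaching 492 without the first labelled knockout array, 104 without the second, and 1 without the second wild-type array; in each the lone array is assumed to vary like the other group. Genes without overlap numbered 4217, 6519 with no filter and 2584 at the 75th percentile, where fewer genes were tested. Subunit genes without overlap numbered 3, but 1 at the 75th percentile, where fewer were tested, and 1 when probe sets were averaged, where 4 subunit genes were tested and Cacnb1, Cacna1a and Cacna2d2 were not.

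The replicate number as a block gave 0 calls over all genes, with 1359 at an unadjusted p under 0.05 against 536 without it, and an adjusted p of 0.440 for Cacnb1. Across genes, the difference between replicates 1 and 2 in the labelled knockout correlated with that in wild type (Pearson r = 0.32 over 11694 genes, which are not independent replicates). The labels do not say that a number marks a pair.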
